A study of Rattus norvegicus with 16 samples.

Results

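The 9 genes described here encode proteins that carry sodium across the epithelium of the distal colon or control this transport. Scnn1a, Scnn1b and Scnn1g encode the alpha, beta and gamma subunits of the epithelial sodium channel. Slc9a3 and Slc9a2 are sodium-proton exchangers, and Atp1b1 is a sodium pump subunit. The others are the mineralocorticoid receptor Nr3c2, the enzyme Hsd11b2 and the kinase Sgk1. All 9 were chosen by name, with earlier results of these data known, as the probes whose transcript accession matched these rat symbols. They are 9 of 15159 named genes on the array and 11 of 30367 probes, and Nr3c2 and Slc9a3 had 2 probes each. All 9 were well above background on all 16 arrays.

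Sodium leaves the lumen of the distal colon by an electrogenic path, through the epithelial sodium channel, and by electroneutral exchange for protons, and the sodium pump moves it on into the blood. Aldosterone acts through the mineralocorticoid receptor to raise the channel and its kinase SGK1, and HSD11B2 shields the receptor by inactivating glucocorticoids. The distal colon is, with the kidney collecting duct, a classic target of aldosterone, and loss of sodium absorption is a known feature of colitis.

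The arrays hold normal distal colon of 16 male F1 rats of an ACI by F344 cross, 4 in each of 4 groups, all 97 days old at sampling. Wildtype rats had the wild type genotype at Apc, and Pirc rats were heterozygous (Pirc/+) for the Pirc allele, a germline change in Apc carried by every cell, and rats with it develop intestinal adenomas. The strain label carries the name Pirc for all 16 rats, and the genotype label gave the groups. In each genotype 4 rats were untreated, and the other 4 received 4% dextran sodium sulfate (DSS), which injures the colonic epithelium, in the drinking water over days 40 to 47 and again over days 54 to 61 of age, so that 36 days had passed since the last DSS. The methods describe scraping of the colonic lumen for normal tissue of untreated animals, and how the tissue of DSS-treated rats was taken is not given in the sources used here.

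Levels are log2 of the array signal minus log2 of the 75th percentile of the same array, so that 0 is a probe as bright as that percentile. Differences are log2 changes with their standard error (SE), and a gene is said to have changed where limma's Benjamini-Hochberg adjusted p over all probes was 0.05 or less. Between 71.1% and 80.3% of spots per array were well above background and none was saturated (0 on every array), and the number of arrays limits the precision. Each of the 2 slides held 2 rats of every group. The 4 groups occupied different array columns, and an effect of the column cannot be told apart from one of the group. Of 7 colonic epithelium markers measured, all 7 were well above background on all arrays, as were 9 of 9 surface colonocyte markers. Some markers of these and of other lists differed between groups and are given below.

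Where RefSeq (GRCr8) gave promoters for the members, the 250 bases before the transcription start were read. They are shown for Scnn1g and Scnn1b, which are neighbours on the chromosome and varied together, and for Sgk1 and Slc9a2, which differed most between Pirc and wildtype rats after DSS. Capitals mark GC boxes (GGGCGG) and TATA boxes (TATAAA) on either strand. RefSeq lists several starts for Sgk1 and Slc9a2, and the window of each with the most motifs is printed.
Scnn1g, chr1:185735975-185736224, plus strand: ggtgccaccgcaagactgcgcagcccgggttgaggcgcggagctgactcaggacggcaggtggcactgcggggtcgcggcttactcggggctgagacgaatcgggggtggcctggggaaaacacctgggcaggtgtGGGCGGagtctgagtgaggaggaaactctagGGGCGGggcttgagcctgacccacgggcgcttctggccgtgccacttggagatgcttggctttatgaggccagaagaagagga
Scnn1b, chr1:185861126-185861375, plus strand: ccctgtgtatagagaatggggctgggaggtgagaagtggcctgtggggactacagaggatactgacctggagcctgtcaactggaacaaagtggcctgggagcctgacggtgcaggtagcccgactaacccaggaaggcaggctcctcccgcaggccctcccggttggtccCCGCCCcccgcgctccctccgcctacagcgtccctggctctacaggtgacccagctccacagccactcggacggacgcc
Sgk1, chr1:24804832-24805081, minus strand: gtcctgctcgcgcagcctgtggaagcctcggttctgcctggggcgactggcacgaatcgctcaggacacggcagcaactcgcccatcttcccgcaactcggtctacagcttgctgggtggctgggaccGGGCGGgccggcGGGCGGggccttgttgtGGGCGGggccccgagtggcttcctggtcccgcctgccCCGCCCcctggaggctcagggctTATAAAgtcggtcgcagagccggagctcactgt
Slc9a2, chr9:50427362-50427611, plus strand: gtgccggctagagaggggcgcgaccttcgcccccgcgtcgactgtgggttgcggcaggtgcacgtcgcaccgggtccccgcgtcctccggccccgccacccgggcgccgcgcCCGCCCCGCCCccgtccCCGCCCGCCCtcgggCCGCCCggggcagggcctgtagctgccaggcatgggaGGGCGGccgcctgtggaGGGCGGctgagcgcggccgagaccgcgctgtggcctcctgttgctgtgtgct
The Slc9a2 window held 7 GC boxes, some of them overlapping, the Sgk1 window 4 and a TATA box, the Scnn1g window 2 and the Scnn1b window 1. Over 33469 promoters of the same length, 30.5% held a GC box and 12.9% a TATA box. The half-site of the glucocorticoid and mineralocorticoid receptors, AGAACA, was searched on both strands and found in 17.5% of the promoters, and in none of the windows of the 5 members with an entry. A missing match says only that these letters do not stand in these windows.

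The alpha subunit, which is needed for the other subunits to form a conducting channel, had its lowest mean in DSS-treated Pirc rats. Scnn1a levels were 1.43, 1.49, 1.82 and 1.13 in untreated wildtype rats, 2.12, 1.85, 2.18 and 1.40 in DSS-treated wildtype rats, 1.46, 1.09, 0.75 and 0.92 in untreated Pirc rats, and 0.20, 0.67, -0.02 and 0.85 in DSS-treated Pirc rats. After DSS every Pirc rat lay below every wildtype rat, whereas the untreated genotypes overlapped. The untreated and DSS-treated Pirc rats also overlapped, and that difference did not pass the test (log2 change -0.63, adjusted p = 0.0901). Scnn1a was lower in Pirc than in wildtype rats by 2.76-fold after DSS (log2 change -1.46, SE 0.23, adjusted p = 0.0016) and by 1.92-fold over both treatments (log2 change -0.94, SE 0.17, adjusted p = 0.0027).

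The beta and gamma subunits, which raise the current the channel carries, did not pass the test in any of the 7 comparisons. Scnn1b levels were -0.60, 0.96, 0.76 and 0.14 in untreated wildtype rats, 0.47, 0.24, 0.70 and -0.79 in DSS-treated wildtype rats, 0.49, -0.34, -1.13 and 0.05 in untreated Pirc rats, and -1.20, 0.98, -2.17 and -0.51 in DSS-treated Pirc rats. Scnn1g levels were -1.54, -0.28, 1.23 and 0.53 in untreated wildtype rats, 0.32, -0.09, 0.83 and -1.56 in DSS-treated wildtype rats, 2.15, 1.40, -1.70 and 0.94 in untreated Pirc rats, and -0.12, 1.68, -1.86 and -0.60 in DSS-treated Pirc rats. Every group of either gene overlapped every other, and single rats of 1 group differed more than the group means did. Between Pirc and wildtype rats after DSS the log2 change was -0.88 for Scnn1b (95% interval -2.11 to 0.36, adjusted p = 0.332) and -0.10 for Scnn1g (95% interval -1.98 to 1.78, adjusted p = 0.950), so changes as large as that of Scnn1a lie within both intervals.

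**Figure D1:**
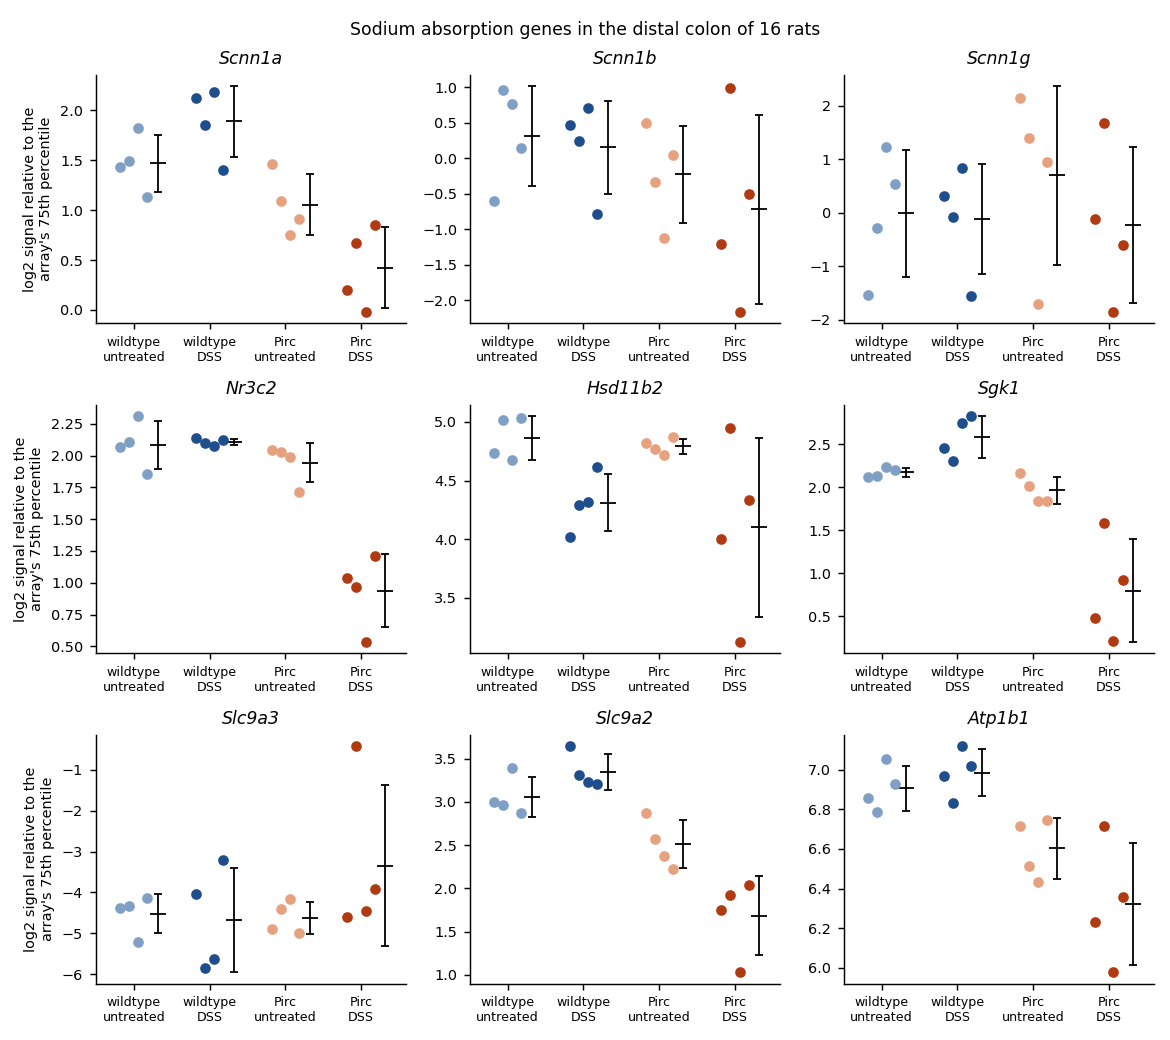
Level of each of the 9 genes in each of the 16 rats by group (points), on the log2 scale of the text, with the group mean and SD (bars, n = 4); each gene has its own axis. Nr3c2, Sgk1 and Slc9a2 were lowest in DSS-treated Pirc rats without overlap. Scnn1a had its lowest mean there but overlapped untreated Pirc rats, and Scnn1b and Scnn1g spread widely within every group.

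The spread of these subunits between rats of 1 group was large for this array. The pooled SD within groups was 1.36 for Scnn1g and 0.889 for Scnn1b, larger than that of 99.8% and 99.1% of the 18803 probes above background on all arrays, whose median SD was 0.245. Over all rats Scnn1g ranged 16-fold and Scnn1b 8.87-fold. Both were lowest in the same rats: rats 13, 19, 20 and 26 had the lowest Scnn1g of their groups, and each of them also the lowest Scnn1b of its group. Rats 11, 16 and 22 had the highest level of both genes in their groups. In untreated wildtype rats the highest was rat 21 for Scnn1g (1.23) and rat 17 for Scnn1b (0.96). The deviations of the genes from their group means correlated with a Pearson's r of 0.85 (Spearman's rho 0.76) over the 16 rats, and with r of 0.81 on slide 1 and 0.87 on slide 2. Without the rats farthest from the median on the Scnn1b axis r was 0.85. It is given as a description, 1 of 36 pairs of members computed, and all values of a pair come from the same arrays. RefSeq lists 0 genes between Scnn1g and Scnn1b. The alpha subunit followed less closely, with r of 0.76 with Scnn1b and 0.67 with Scnn1g.

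**Figure D2:**
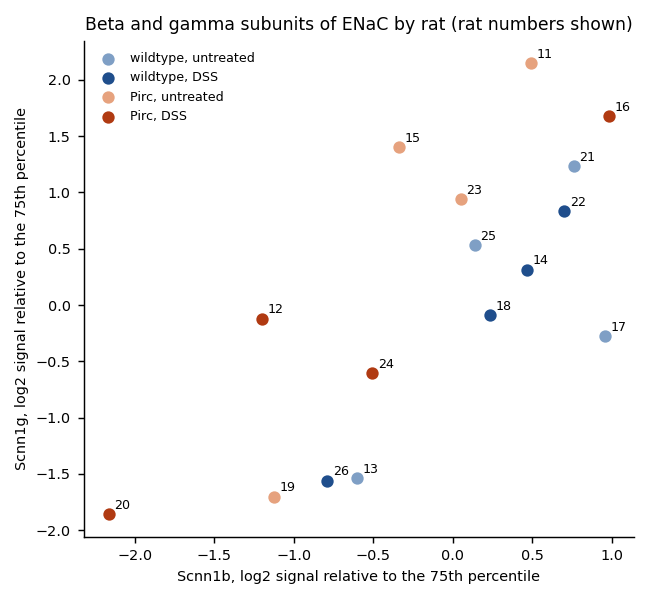
Level of Scnn1g (vertical axis) against Scnn1b (horizontal axis) in each rat, both on the log2 scale of the text; colours give the group and numbers name the rats. Rats 13, 19, 20 and 26, 1 from each group, had the lowest levels of both genes within their groups.

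The mineralocorticoid receptor Nr3c2, the nuclear receptor that binds aldosterone, was diminished in DSS-treated Pirc rats, while the other groups overlapped. Its levels were 2.07, 2.11, 2.31 and 1.85 in untreated wildtype rats, 2.14, 2.10, 2.08 and 2.12 in DSS-treated wildtype rats, 2.05, 2.03, 1.99 and 1.72 in untreated Pirc rats, and 1.03, 0.97, 0.53 and 1.21 in DSS-treated Pirc rats. The 4 DSS-treated Pirc rats lay below the 12 others without overlap. Nr3c2 was lower by 2.25-fold in Pirc than in wildtype rats after DSS (log2 change -1.17, SE 0.15, adjusted p = 0.0004) and by 2.01-fold in DSS-treated than in untreated Pirc rats (log2 change -1.01, SE 0.15, adjusted p = 0.0005). The second probe of Nr3c2 gave log2 changes of -1.25 (adjusted p = 0.0006) and -0.95 (adjusted p = 0.0017) for the same comparisons. In wildtype rats the log2 change after DSS was 0.02 (95% interval -0.29 to 0.34).

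Sgk1, the kinase that keeps the channel at the cell surface, fell after DSS in Pirc rats, and its higher level after DSS in wildtype rats did not pass the test. Sgk1 levels were 2.12, 2.13, 2.24 and 2.21 in untreated wildtype rats, 2.45, 2.31, 2.74 and 2.83 in DSS-treated wildtype rats, 2.17, 2.01, 1.84 and 1.84 in untreated Pirc rats, and 0.48, 1.58, 0.21 and 0.93 in DSS-treated Pirc rats. All DSS-treated wildtype rats lay above the untreated ones, and all DSS-treated Pirc rats below theirs. The fall in Pirc rats was 2.24-fold and passed the test (log2 change -1.17, SE 0.23, adjusted p = 0.0036), and the value in wildtype rats did not (log2 change 0.41, SE 0.23, adjusted p = 0.419). After DSS, Sgk1 was 3.44-fold lower in Pirc than in wildtype rats (log2 change -1.78, SE 0.23, adjusted p = 0.0005), the largest of the members' changes in that comparison.

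Hsd11b2, the enzyme that converts corticosterone to an inactive form, was lower after DSS over both genotypes. Hsd11b2 levels were 4.73, 5.02, 4.67 and 5.03 in untreated wildtype rats, 4.02, 4.30, 4.32 and 4.62 in DSS-treated wildtype rats, 4.82, 4.77, 4.72 and 4.87 in untreated Pirc rats, and 4.00, 4.95, 3.12 and 4.33 in DSS-treated Pirc rats. The wildtype groups did not overlap, whereas rat 16 of the DSS-treated Pirc rats lay above every untreated Pirc rat. Over both genotypes the fall was 1.54-fold (log2 change -0.62, SE 0.20, adjusted p = 0.0405). That call was close to the threshold: it held without rat 16, 20, 24 or 26 and was lost without each of the other 12 rats in turn, with adjusted p between 0.0049 and 0.0854, and without rats 25 and 26 together (adjusted p = 0.0663). Between genotypes Hsd11b2 did not pass the test, with a log2 change of -0.21 after DSS (95% interval -0.80 to 0.38).

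Of the apical exchangers, Slc9a2 (NHE2) differed between the genotypes. Slc9a2 levels were 3.0, 2.96, 3.39 and 2.87 in untreated wildtype rats, 3.64, 3.31, 3.23 and 3.20 in DSS-treated wildtype rats, 2.87, 2.57, 2.38 and 2.22 in untreated Pirc rats, and 1.75, 1.92, 1.03 and 2.04 in DSS-treated Pirc rats. The DSS-treated Pirc rats lay below all others, and the untreated Pirc rats overlapped the untreated wildtype rats by a single rat of each. Slc9a2 was 3.16-fold lower in Pirc than in wildtype rats after DSS (log2 change -1.66, SE 0.21, adjusted p = 0.0005) and 1.77-fold lower in DSS-treated than in untreated Pirc rats (log2 change -0.83, SE 0.21, adjusted p = 0.0184). The latter call was lost without rat 11, 15 or 20, where adjusted p reached 0.0623, and with only the Pirc groups fitted (adjusted p = 0.0871).

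Slc9a3 (NHE3), the exchanger that the small intestine and proximal colon also rely on, was dim in these samples. Slc9a3 levels were -4.39, -4.34, -5.21 and -4.12 in untreated wildtype rats, -4.04, -5.84, -5.63 and -3.20 in DSS-treated wildtype rats, -4.90, -4.41, -4.17 and -5.00 in untreated Pirc rats, and -4.60, -0.43, -4.44 and -3.93 in DSS-treated Pirc rats. Rat 16, a DSS-treated Pirc rat, stood far above the other 15, and its level of the second Slc9a3 probe, -3.62, was also the highest on the arrays. The log2 change between Pirc and wildtype rats after DSS was 1.33 (SE 0.78, adjusted p = 0.273) and 0.35 without rat 16, and no comparison passed the test.

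Atp1b1, the beta subunit that carries the sodium pump to the basolateral membrane, varied little within groups. Atp1b1 levels were 6.86, 6.79, 7.05 and 6.93 in untreated wildtype rats, 6.97, 6.83, 7.12 and 7.02 in DSS-treated wildtype rats, 6.72, 6.52, 6.43 and 6.75 in untreated Pirc rats, and 6.23, 6.72, 5.98 and 6.36 in DSS-treated Pirc rats. Within each treatment all Pirc rats lay below all wildtype rats, as did 1.73% of all probes. The change was small, 1.40-fold over both treatments (log2 change -0.48, SE 0.10, adjusted p = 0.0073) and 1.59-fold after DSS (log2 change -0.66, SE 0.15, adjusted p = 0.0081). The call after DSS was lost with only the DSS-treated groups fitted (adjusted p = 0.0614), and relative to the epithelium markers on the same array both calls were lost (log2 change -0.29, adjusted p = 0.0522, over both treatments).

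In Pirc against wildtype rats after DSS, 5 of 9 members were lower (Sgk1, Slc9a2, Scnn1a, Nr3c2 and Atp1b1) and 0 higher, and all 5 were without overlap between the groups. Over all probes 8.76% were lower by the same test, and 9.13% lay lower without overlap. All probes include dim ones, whereas the members were all above background. With dim probes filtered out, 21213 probes well above background in every rat of at least 1 group were left. Of these, 3282 were lower. With a factor of 2 in addition 4 of the 5 members remained, against 2.37% of all probes. The members' median log2 change was -0.88 and that of all probes -0.11. Over both treatments, a comparison that shares all of these rats, the same 5 members were lower. There 8.27% of all probes were lower, and 3139 of the 21213 left by the filter on dim probes. The members' median was -0.66 against -0.06. Each of the 5 members kept its call in both comparisons with any single rat left out.

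In untreated rats alone 0 of 9 members passed limma's test between genotypes, as did 0% of all probes, and 1 member had an unadjusted p under 0.05 (10.2% of all probes). That member was Slc9a2 (log2 change -0.54, adjusted p = 0.394). Atp1b1 was the 1 member without overlap there (log2 change -0.30, adjusted p = 0.514), as were 4.02% of all probes in that direction. The members' median was -0.21 and that of all probes -0.02.

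In Pirc rats 3 of 9 members were lower after DSS (Sgk1, Nr3c2 and Slc9a2), all without overlap, where 6.51% of all probes were lower and 8.06% lay lower without overlap. Of the 21213 probes left by the filter on dim probes, 2415 were lower. Scnn1a (log2 change -0.63, adjusted p = 0.0901) and Hsd11b2 (log2 change -0.69, adjusted p = 0.116) did not pass. Without rat 16, however, Hsd11b2 passed (log2 change -0.97, adjusted p = 0.0148), and without rat 24 Scnn1a did (adjusted p = 0.0422). Under quantile normalization Hsd11b2 (-0.85) and Atp1b1 (-0.46) also passed in Pirc rats, and the probes called over all genes then divided into 2210 higher and 3326 lower, against 2473 and 1978 here. In wildtype rats 0 of 9 members passed in limma, where 3.84% of all probes did, and 0 had an unadjusted p under 0.05 (16.8% of all probes). Without overlap in wildtype rats were Hsd11b2, lower as 4.44% of all probes, and Sgk1, higher as 8% of all probes. The probes called in wildtype rats were 892 higher and 273 lower, and 802 and 575 under quantile normalization. Over both genotypes 2 of 9 members were lower, Nr3c2 (log2 change -0.49, SE 0.10, adjusted p = 0.0043) and Hsd11b2, with 6.99% of all probes lower. Over both genotypes 3111 probes were higher and 2123 lower, and 2671 and 3730 under quantile normalization. The members' median change was -0.69 in Pirc rats (all probes 0.04) and 0.02 in wildtype rats (all probes 0.09).

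**Figure D3:**
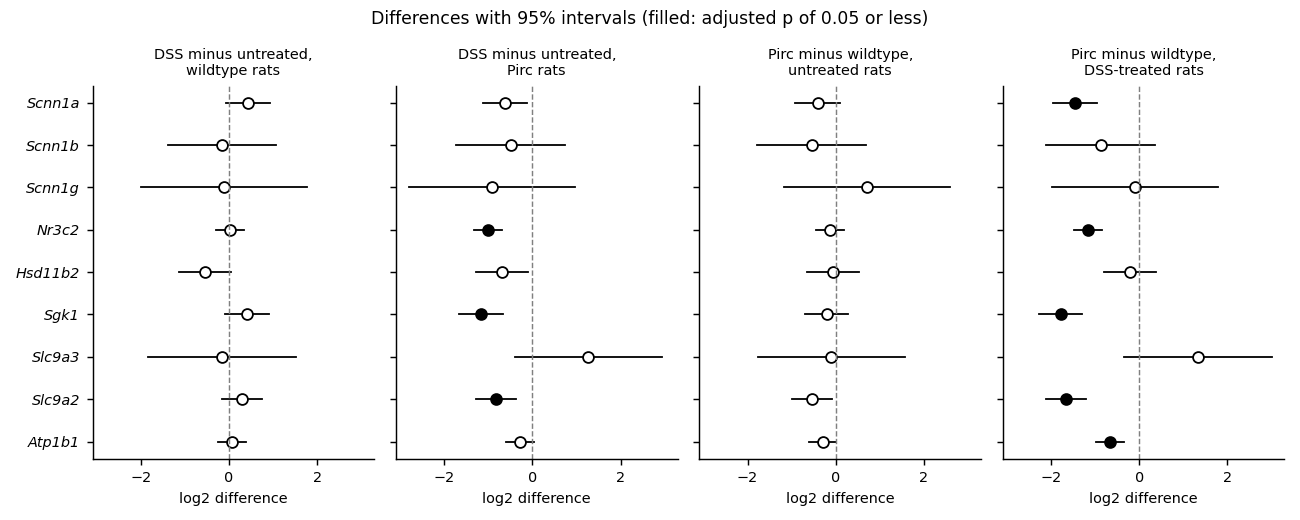
Log2 difference of each gene (points) with its 95% interval (lines) in 4 comparisons; filled points passed the test (adjusted p at most 0.05) and the dashed line is no difference. The comparisons share groups, so the panels are not independent; Sgk1, Slc9a2, Scnn1a, Nr3c2 and Atp1b1 were lower in Pirc rats after DSS, with intervals that exclude 0.

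Whether DSS acted differently in the 2 genotypes was tested as the difference between the DSS effects. In that test 0 of 9 members passed in limma, as 0.0428% of all probes did, and 4 members had an unadjusted p under 0.05 (10.6% of all probes). Those were Sgk1 (difference -1.57, SE 0.33, adjusted p = 0.116), Nr3c2 (-1.03, SE 0.21, adjusted p = 0.115), Slc9a2 (-1.12, SE 0.30, adjusted p = 0.223) and Scnn1a (-1.05, SE 0.33, adjusted p = 0.299). Without rat 16 the difference for Sgk1 was -1.84 (adjusted p = 0.0057) and passed, and under normexp background correction Nr3c2 passed (-1.0, adjusted p = 0.0496). A different effect of DSS in the genotypes was thus not called for any member with all rats and the scaling used here.

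Rat 20 of the DSS-treated Pirc rats had the lowest level of its group for 8 of 9 members, and rat 16 the highest for 6. The same rats had the lowest and highest mean of the surface colonocyte markers in the group, which ranged from 1.03 to 2.47. They were also lowest and highest on the epithelium, smooth muscle and fibroblast marker lists. On the markers of stratified squamous epithelium and urothelium rat 20 had the highest mean of the group (0.51). Rat 16 had the lowest 75th percentile of all arrays (875), by which its signals were divided. What sets these rats apart was not tested. In bulk tissue, fewer cells of a type and less RNA per cell cannot be told apart.

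Several marker lists differed between the genotypes after DSS, where 2877 of all 30367 probes were higher and 2660 lower in Pirc rats. The mean level of the 7 epithelium markers was 4.84 to 5.06 in DSS-treated Pirc rats and 5.21 to 5.33 in DSS-treated wildtype rats, without overlap, and 4 of the 7 were lower (Cdh1, Epcam, Vil1 and Krt8). Of 9 surface colonocyte markers 2 were lower, Slc26a3 (log2 change -2.25, adjusted p = 0.0009), the chloride-bicarbonate exchanger, and Guca2a (log2 change -1.42, adjusted p = 0.0004), which encodes guanylin, and the list mean of 1.03 to 2.47 overlapped that of wildtype rats, 1.87 to 2.55. Markers of stratified squamous epithelium and urothelium, which do not belong to colonic epithelium, were higher in 4 of 10. Their list mean of -1.42 to 0.51 overlapped that of wildtype rats, -5.34 to -0.53. The low end in wildtype rats was rat 26 alone, and the next lowest, rat 14, had -3.15. Of these 10 markers, 7 were well above background on all arrays. The urothelial marker Upk2 was never above background, and the uroplakins Upk1b and Upk3a are also among the 10. The list mean was -5.46 to -4.66 in untreated Pirc rats and -5.43 to -4.90 in untreated wildtype rats.

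Leukocyte markers were higher in 2 of 10 in Pirc than in wildtype rats after DSS, where 2877 of all 30367 probes were higher. Their list mean was -2.62 to -1.80 against -3.63 to -2.61. In Pirc rats DSS raised 8 of 10 leukocyte markers, 6 of 6 fibroblast markers and 9 of 10 squamous and urothelial markers. Of all 30367 probes 2473 were higher in that comparison. In wildtype rats DSS raised 6 of 10 leukocyte, 4 of 6 fibroblast and 2 of 10 squamous and urothelial markers, where 892 of all probes were higher. Between Pirc and wildtype rats after DSS the proliferating crypt cell markers were higher in 1 of 5, and their mean, -1.91 to -1.37 in DSS-treated Pirc rats, lay above that of wildtype rats, -2.89 to -2.29. Between the same groups smooth muscle markers were higher in 0 of 6, fibroblast in 0 of 6, endothelial in 0 of 5 and goblet cell markers in 1 of 6, with 1 goblet cell marker lower. Wildtype rats 25 (untreated) and 26 (DSS) stood apart on the smooth muscle list, with means of -0.54 and 0.06 against -3.95 to -1.46 in the 14 others. Without these rats, a setting chosen after seeing the data, the same 5 members were lower in Pirc rats over both treatments and after DSS, Atp1b1 with the highest adjusted p of the 5 (0.0192 and 0.0229). The part of these cell types in the sodium genes was not tested. Relative to the epithelium list on the same array, a setting chosen after seeing the data, Sgk1 (log2 change -1.51), Slc9a2 (-1.39), Scnn1a (-1.19) and Nr3c2 (-0.90) still passed between Pirc and wildtype rats after DSS, and Atp1b1 did not (-0.39, adjusted p = 0.0617). Of all probes called in that comparison 2877 were higher and 2660 lower, and relative to the epithelium list 5984 and 986, where the median change of all probes was 0.16 against -0.11.

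**Figure D4:**
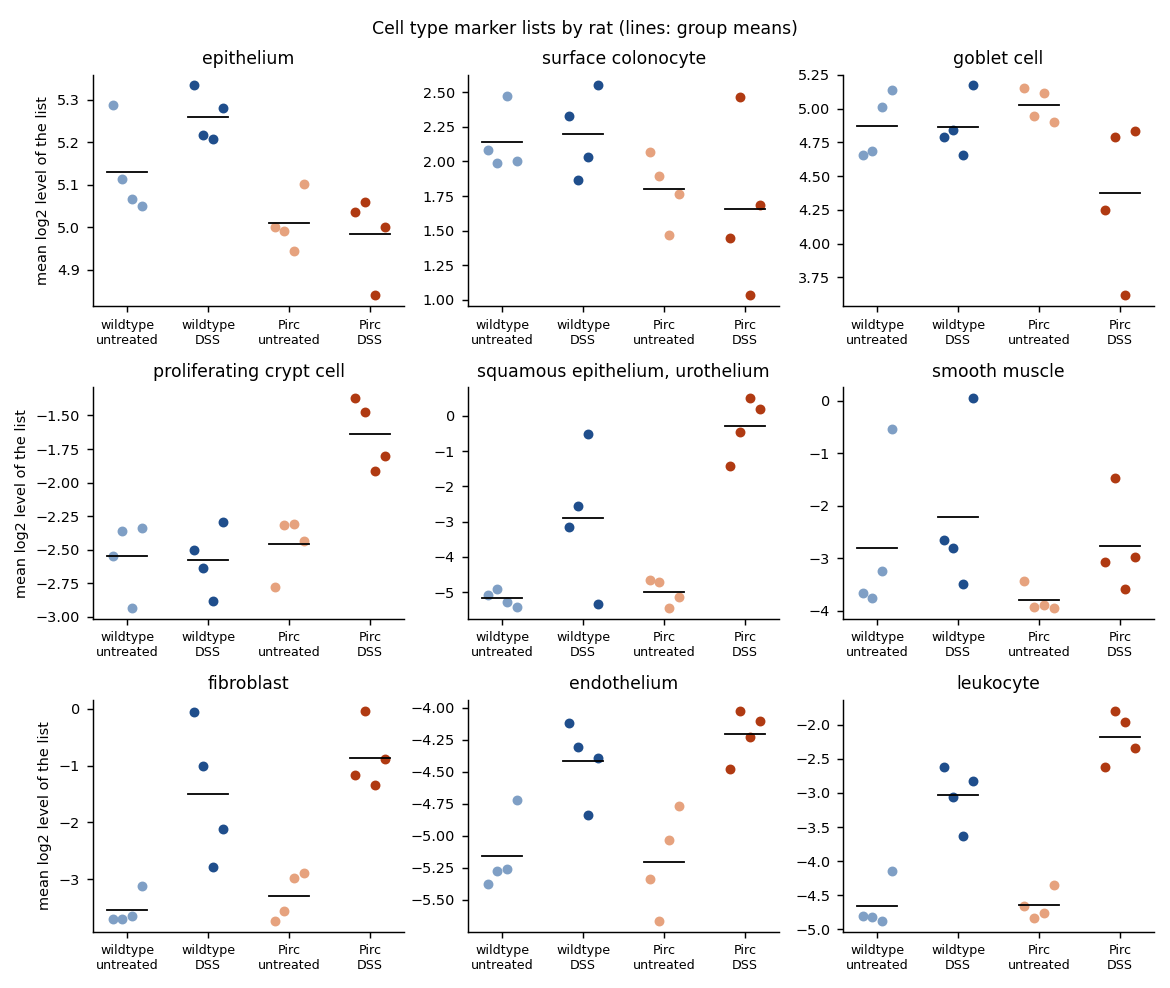
Mean log2 level of each cell type marker list in each rat (points) by group, with group means (lines); each list has its own axis. In DSS-treated rats the fibroblast, leukocyte and squamous lists lay mostly higher than in untreated ones, and the epithelium list was lowest in rat 20, a DSS-treated Pirc rat.

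Within slides, which hold 2 rats of each group, the direction of the 5 members was the same on both. Sgk1 changed by -1.35 on slide 1 and -2.22 on slide 2, Slc9a2 by -1.64 and -1.68, Scnn1a by -1.55 and -1.38, Nr3c2 by -1.12 and -1.23, and Atp1b1 by -0.43 and -0.90 (log2, Pirc against wildtype after DSS). Of these 5, 3 passed on slide 1 and 1 on slide 2.

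The other genes of sodium transport were taken from 6 lists of 72 symbols, also chosen with earlier results of these data known. Of these genes 64 were measured and 47 were above background on all arrays. Over both treatments 14 were lower (21.9%) and 7 higher in Pirc than in wildtype rats, where 8.27% of all probes were lower and 9.26% higher. Of the 21213 probes left by the filter on dim probes, 3139 were lower and 3406 higher. After DSS, over both genotypes, 10 were higher and 6 lower, where 10.2% of all probes were higher and 6.99% lower. The list medians were -0.15 and 0.03, beside -0.06 and 0.06 over all probes. After DSS in wildtype rats alone 5 of the 64 were higher and 0 lower, and in Pirc rats alone 7 were higher and 7 lower. Of all 30367 probes 892 were higher and 273 lower in wildtype rats, and 2473 and 1978 in Pirc rats. Between genotypes 0 of the 64 passed in untreated rats alone, as did 0% of all probes. In DSS-treated rats 12 were lower and 5 higher, where 8.76% of all probes were lower. Genes of the lists are named below for the comparisons over both treatments or both genotypes. The lists share no gene with the 9 members.

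Where 8.27% of all probes were lower in Pirc rats over both treatments, 3 of 13 genes that control the sodium channel were lower. These were Cnksr3 (log2 change -1.22, adjusted p = 0.0017), an aldosterone-induced scaffold for the kinase that acts on the channel, and the protease inhibitors Spint1 (-0.76, adjusted p = 0.0026) and Spint2 (-0.39, adjusted p = 0.0069), which restrain channel-activating proteases. Stx1a (0.66), a syntaxin that binds the channel, and Nedd4 (0.44), a ubiquitin ligase related to the one that removes the channel, were higher. After DSS Cnksr3 (-0.68) and Nedd4 (-0.48) were lower and Stx1a (0.57) higher over both genotypes, with Serpine2, a protease inhibitor, also higher but above background on only 6 of 16 arrays. The other 7 genes did not pass in either comparison.

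Among 13 genes of corticosteroid action, Tsc22d3, which encodes the glucocorticoid-induced leucine zipper (GILZ), was lower in Pirc rats (log2 change -1.15, adjusted p = 0.0011) and after DSS (-0.77, adjusted p = 0.0048). The glucocorticoid receptor Nr3c1 was also lower in both (-0.39 and -0.39), as were Ndrg2 (-0.93), which aldosterone induces, and Slc12a3 (-0.62), the thiazide-sensitive cotransporter, in Pirc rats. Fkbp4, a chaperone of steroid receptors, was higher in Pirc rats (0.49). Over both genotypes DSS raised Sgk2 (1.18), a kinase related to SGK1, and Hsd11b1, which regenerates glucocorticoid and was well above background on all 8 arrays of DSS-treated rats and on none of the 8 of untreated ones.

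Of 11 exchangers and NHE3 regulators 5 were lower in Pirc rats over both treatments, where 8.27% of all probes were lower. In untreated rats alone 0 passed between genotypes, and in DSS-treated rats 5 were lower. For DSS over both genotypes 0 passed. Over both treatments the largest falls in Pirc rats were those of Nherf1 (log2 change -0.92, adjusted p = 0.0007), Chp2 (-0.86) and Ezr (-0.61). Nherf1 and ezrin hold NHE3 at the apical membrane and Chp2 is a partner of the exchangers. Among pump subunits and FXYD proteins 2 of 12 were higher in Pirc rats, Atp1b3 (0.51), another beta subunit, and Fxyd3 (0.43). Of all probes 9.26% were higher in that comparison. After DSS 4 of these 12 genes were higher, where 10.2% of all probes were higher. Fxyd5 changed most (2.35, adjusted p = 6.42e-05), Fxyd1 was above background on 11 of 16 arrays, and Fxyd2 (0.55) and Fxyd3 (0.37) changed by less.

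Colonic potassium channels, which set the driving force for sodium entry, split in both comparisons. In Pirc rats Kcnk5 (log2 change -0.73) and Kcnk1 (-0.34) were lower and Kcne3 (0.46) and Kcnmb4 (above background on 11 of 16 arrays) higher. After DSS Kcnma1 (0.71), the large-conductance channel, and Kcnmb4, its accessory subunit, were higher and Kcnk5 (-0.83) and Kcnq1 (-0.66) lower. Of 5 acid-sensing and related channels 0 passed in either comparison, and 4 (Asic1, Asic2, Asic4 and Asic5) were never above background.

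**Figure D5:**
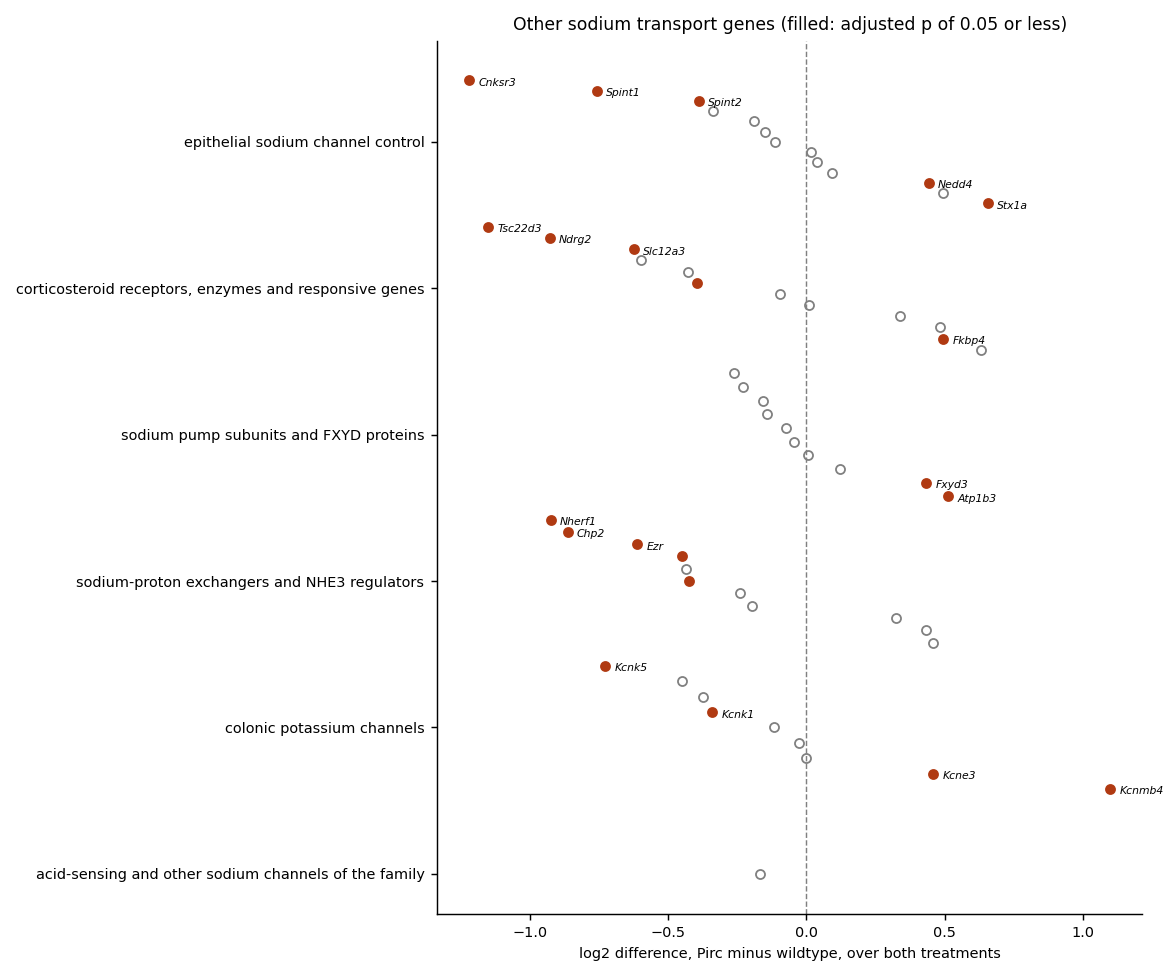
Log2 difference between Pirc and wildtype rats over both treatments (horizontal axis) for the other sodium transport genes above background on at least 1 array, by list (vertical axis); filled points passed (adjusted p at most 0.05). Up to 3 of them per list and direction are named. Of 64 genes measured 14 were lower and 7 higher.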

How the data were processed

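Total RNA of each rat was labelled with Cy3 and hybridised to 1 single-colour Agilent array. The authors deposited scanner output of Agilent Feature Extraction (version 10.7.3.1), and its processed signal, a linear intensity with background removed, carries no scaling between arrays. Partek is named in the submitters' processing notes without a role. The array design used rn4, so no gene coordinates are given, and promoters come from GRCr8.

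From each array of 62976 spots, 4259 controls were left out. Signals were divided by the 75th percentile of their array, put on the log2 scale and averaged per probe over spots without an outlier flag (25 probe values had flagged spots only, which stayed in). Probes were named by their accession in a RefSeq table (18006 probes matched 15159 symbols, 12361 did not match). The fits used limma (version 3.58.1, R version 4.3.3), eBayes after lmFit, 1 mean per group over 16 arrays and Benjamini-Hochberg adjustment over 30367 probes, in 7 comparisons. The code was tested on simulated data. A gene is given by its probe of highest mean level.

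All 9 members are named in every comparison, and from each pathway list up to 3 genes with the largest rise and 3 with the largest fall among those passing over both genotypes or both treatments. For every member the genes most like it over the 16 arrays are named. Members and lists were chosen with earlier results of these data known. Alternatives were other normalizations, background corrections, filters, blocks, slides and thresholds and each rat left out. Normexp used median signals (offset 50). The rats are separate animals, each with its own number. No pair of arrays held identical values (0 pairs). The values of 1 gene of the pathway lists are not reported here.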

Additional observations from a re-analysis of the deposited data

Results flagged for a closer look

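Among 44 groups of 4 levels (each probe of the members in each group), 2 held a rat farther from the others than the critical value of Dixon's test allows, and chance, at about 1 in 20 groups, gives 2.2. Slc9a3 in rat 16, a DSS-treated Pirc rat, had a level of -0.43 where the other rats of the group had -4.60 to -3.93. Nr3c2 in rat 23, an untreated Pirc rat, had a level of 1.72 where the others had 1.99 to 2.05.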

How the results depend on the processing

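No paired analysis was possible because the groups share no replicate numbers: each rat has a number of its own. Each row of a slide held 1 rat of every group, and with slide and array row as a block each count of changed members was as reported.

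Of the counts of changed members, those in wildtype rats after DSS and in untreated rats between genotypes were 0 under every alternative run. Between Pirc and wildtype rats the count stayed at 5 with each rat left out (range 5 to 5), over both treatments and after DSS alike. With 2 rats a group it was 0 on slide 1 and 0 on slide 2 over both treatments, and 3 and 1 after DSS, where fewer rats were tested. A factor of 2 in addition left 1 over both treatments. For DSS in Pirc rats 5 members passed under quantile normalization and 5 under normexp (Hsd11b2 and Atp1b1 in addition), 1 on slide 1 and 0 on slide 2, and 2 to 4 with each rat left out. Over both genotypes 1 passed under a common floor, 1 without moderation, 1 on slide 1, 0 on slide 2, 0 with the factor of 2 in addition, and 1 to 3 with each rat left out, where 3 came without rat 16, and 1 without rats 25 and 26 together. For the difference between DSS effects 1 passed under normexp and 0 to 1 with each rat left out. Of the other sodium transport genes, DSS changed 10 on slide 1, 4 on slide 2 and 6 with the factor of 2, and 11 to 16 with each rat left out. Between genotypes these were 0, 0 and 3, and 14 to 25. Under normexp the probes called after DSS were 2575 higher and 3944 lower over both genotypes, 2285 and 3524 in Pirc rats and 610 and 648 in wildtype rats. The cause of these shifts was not tested.

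Values that changed sign were all uncalled. For Scnn1g they were 0.011 (DSS, both genotypes), 1.02 (DSS, wildtype) and 0.66 (Pirc after DSS) on slide 1, and -1.06 (Pirc, both treatments), -1.26 (Pirc, untreated) and 0.40 (difference between DSS effects) on slide 2. Scnn1b was 0.17 on slide 1 (DSS, wildtype). Without rats 25 and 26 Scnn1b was 0.096, Scnn1g 0.55 and Nr3c2 -0.059 (DSS, wildtype) and Slc9a3 0.029 (Pirc, untreated). Hsd11b2 was 0.12 (Pirc, both treatments), 0.32 (Pirc after DSS) and 0.39 (difference) on slide 1. Slc9a3 was 0.26 (DSS, wildtype) and 0.087 (Pirc, untreated) on slide 2, and 0.0018 (DSS, wildtype) with its probes averaged. Relative to the epithelium list the median change of all probes between genotypes was 0.14 over both treatments, against -0.058 on the reported scale, and 0.16 after DSS, against -0.11. The probes called between genotypes were then 6192 higher and 895 lower over both treatments and 5984 and 986 after DSS, and after DSS in wildtype rats 686 and 574. On that scale Nr3c2 was -0.11 and Atp1b1 -0.052 (DSS, wildtype), Hsd11b2 0.058 (Pirc, both treatments), 0.051 (untreated), 0.064 (after DSS) and 0.014 (difference), Slc9a3 0.018 (Pirc, untreated) and Scnn1g 0.17 (Pirc after DSS).

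With each rat left out, DSS in wildtype rats gave -0.47 to 0.15 for Scnn1b, -0.62 to 0.37 for Scnn1g, -0.055 to 0.098 for Nr3c2 and -0.65 to 0.23 for Slc9a3. Between genotypes over both treatments Scnn1g gave -0.012 to 0.70 and Hsd11b2 -0.28 to 0.023, in untreated rats Slc9a3 -0.33 to 0.029, and after DSS Scnn1g -0.74 to 0.44 and Hsd11b2 -0.49 to 0.11. The difference between DSS effects was -0.90 to 0.15 for Scnn1b and -0.42 to 0.18 for Hsd11b2. Among further calls of single members that changed were Slc9a2 for DSS in Pirc rats with only the compared groups fitted (adjusted p = 0.0871), Atp1b1 after DSS likewise (adjusted p = 0.0614), Scnn1a for DSS in Pirc rats without rat 24 (adjusted p = 0.0422), Hsd11b2 for DSS in Pirc rats without rat 16 (adjusted p = 0.0148) and Sgk1 for DSS over both genotypes without rat 16 (adjusted p = 0.0100).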

Other observations

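For each member the 2 named genes of 9963 with the highest Pearson correlation over the 16 arrays are given as a description. The points share groups and arrays. For Nr3c2 they were Mep1a (r 0.98), a brush border protease subunit, and Galnt18 (0.97). For Slc9a2 they were Hsd17b2 (0.97), which inactivates estradiol and testosterone, and Cyp3a9 (0.97), a cytochrome P450. Scnn1a was closest to Unc5b (0.98), a netrin receptor, and Mylk (0.98), the myosin light chain kinase. Sgk1 was closest to Drc3 (0.96) and Sema3b (0.95), and Atp1b1 to Fth1 (0.96), the ferritin heavy chain, and also Sema3b (0.95). Hsd11b2 was closest to Vmac (0.92) and Nr1h4 (0.91), the bile acid receptor FXR. The values were lower for Scnn1b, with Foxj2 (0.86) and Tbc1d25 (0.86), for Slc9a3, with Hsd3b2 (0.83) and Plin2 (0.83), and for Scnn1g, with Smim7 (0.79) and Txk (0.76).

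Of the 36 pairs of members, those with the highest r of deviations from group means over the 16 rats are given as a description. For Nr3c2 and Slc9a2 r was 0.87 (Spearman's rho 0.85), with 0.50 on slide 1 and 0.94 on slide 2. For Sgk1 and Atp1b1 it was 0.86 (rho 0.74), with 0.93 on slide 1 and 0.79 on slide 2. For Hsd11b2 and Sgk1 it was 0.86 (rho 0.69), with 0.87 on slide 1 and 0.89 on slide 2.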
